A study of Homo sapiens with 6 samples.

Results

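The genes described here are the ATP-binding cassette (ABC) family, taken as every row of the deposited count table whose symbol begins with ABC, a subfamily letter from A to G and a digit, which gave 45 of the 20030 genes in the table. Each encodes a protein with the nucleotide-binding fold that uses ATP, and in most members the energy of ATP moves a lipid, a bile constituent, a drug conjugate or a metal complex across a membrane. In the liver these pumps empty bile salts, phospholipid, cholesterol and conjugated bilirubin into the canaliculus and return other conjugates to the blood, while the E and F subfamilies have no membrane domain and act on ribosomes and translation. HepG2 is an established human hepatoma line that is widely used as a stand-in for hepatocytes. HepG2 cells that carried a lentiviral control shRNA (sh-ctrl, 3 libraries) were compared with HepG2 cells that carried a lentiviral shRNA against KIF11 (sh-KIF11, 3 libraries), in poly(A) RNA made into stranded libraries. Transduced cells of this study were selected with puromycin, the oligo list of the study gives 1 hairpin against KIF11, and no source used here gives the time of harvest. KIF11 is a kinesin motor of the mitotic spindle, and the comparison asks which transcripts differ when it is depleted.

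The hairpin is shown because its target defines the comparison, with the whole target in capitals.
sh-KIF11 target: GCGCCCATTCAATAGTAGAAT
These 21 bases matched exon 2 of the 22 exons of KIF11, in the coding part, at chr10:92606294-92606314 on the plus strand (GRCh38, GENCODE 29). No other gene held an exact match, and none of the 516 transcripts of ABC genes in that annotation did. KIF11 stood at 111, 116 and 121 CPM (counts scaled to library size with TMM factors) in the 3 sh-ctrl libraries, against 72.1, 71.4 and 62.8 in those of sh-KIF11. The groups did not overlap, and the mean fell from 116 to 68.8 CPM (log2 fold change -0.75 ± 0.06 SE, adjusted p = 4.22e-15, quasi-likelihood test of edgeR, adjusted by Benjamini-Hochberg, used for every adjusted p below unless another test is named).

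The libraries held between 18167773 and 19583282 counts, and ABC genes took between 0.21% and 0.215% of them in sh-ctrl and between 0.303% and 0.311% in sh-KIF11. These are shares of raw counts, and with library totals alone the median log2 fold change of all genes tested was 0.235. A few genes weigh heavily in them. ABCC2 alone held 10112 of the 41338 ABC counts in sh-ctrl replicate 1 and 16661 of 56371 in sh-KIF11 replicate 1. Of the hepatocyte markers ALB, AFP, TTR, APOA1, APOB, SERPINA1 and HNF4A, 6 of 7 fell, and their summed level went from 28230 ± 562.6 to 14020 ± 565.9 CPM (SD, n = 3). The fibroblast markers COL1A1, COL1A2, COL3A1, DCN and LUM summed to between 0.0561 and 0.554 CPM in sh-ctrl and between 0.0966 and 0.456 in sh-KIF11, none passed the count filter, and DCN was at 0. Of the endothelial markers 1 of 4 rose, CDH5 and KDR were untested, and the sum went from 3.377 ± 0.2017 to 4.877 ± 0.1677 CPM. Of the leukocyte markers PTPRC and CD3E were untested while 2 of the 4 fell, among them CD68 from a mean of 82.3 to 44.2 CPM. The summed leukocyte markers ranged from 84.65 to 93.78 CPM in sh-ctrl and from 44.78 to 49.36 CPM in sh-KIF11. This sum is mostly CD68, whose means compare with mean sums of 89.44 and 47.64 CPM, while PTPRC and CD3E had at most 3 counts in any library. The sum is therefore no measure of leukocyte content. Across all 12369 genes tested 69.1% were called at an adjusted p under 0.05, 34.4% higher and 34.7% lower in sh-KIF11, and the median log2 fold change was 0.004. With so large a share of genes called, a call alone says little about a gene, and the size of its change says more. In bulk RNA fewer cells that express a gene and less of its RNA per cell cannot be told apart. The part that the marker shift plays in the values below was not tested.

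Of the 45 members, 32 passed the count filter and were tested, and 26 of these were called (81.2%, against 69.1% of all genes tested). Called members comprised 17 that rose and 9 that fell, and the median log2 fold change over the 32 was 0.145. ABCA12 and ABCA4 reached 10 counts in all 3 libraries of a group only in sh-KIF11, so that group carried them past the filter, and of the 30 members with at least 10 counts in every library 15 rose and 9 fell. At 2-fold or more, 5 members rose, namely ABCA12, ABCA4, ABCA5, ABCC1 and ABCC3, against 8.13% of all genes tested, and ABCA2 alone fell, against 3.52%. Among the 30 members with at least 10 counts in every library, 3 rose by 2-fold or more (10%, against 4.91% of all genes so filtered). The split depended on the scaling. With library totals in place of TMM factors, which moved the median of all genes to 0.235, 23 members rose and 6 fell, or 79.3% higher among those called against 73.6% over all genes, and limma on the log2 of the authors' FPKM (a level scaled to transcript length and library size) gave 22 and 6. With TMM factors these shares were 65.4% and 49.8%. All sh-KIF11 libraries lay above all sh-ctrl libraries for 17 tested members and below them for 9, and the shares of all genes tested that did so were 35.3% and 35.8%.

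**Figure D1:**
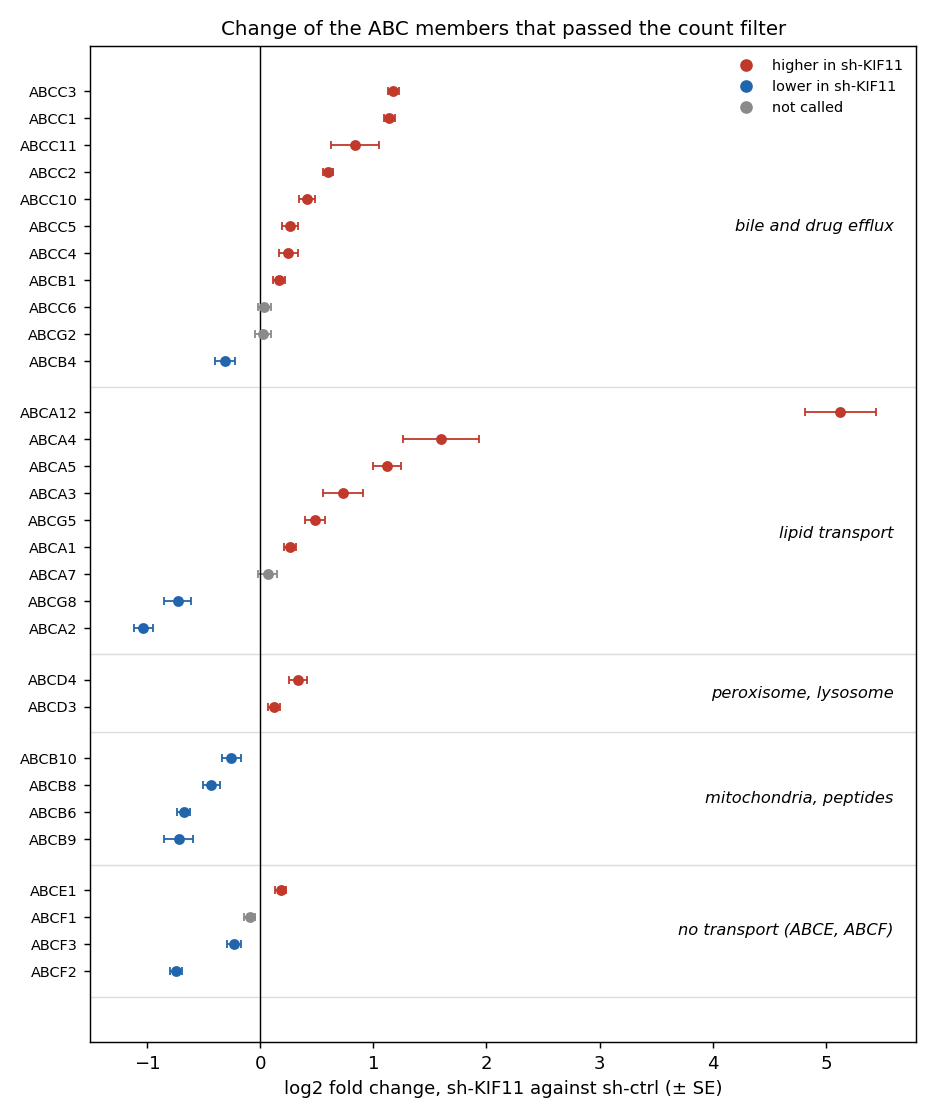
Log2 fold change of sh-KIF11 against sh-ctrl with its SE (x axis) for 30 of the 32 tested ABC members, grouped by role and coloured by the call at an adjusted p under 0.05. ABCA12 lies far to the right at 5.13, the other bile, drug and lipid members lie between -1.03 and 1.60, and the 4 mitochondrial and peptide members drawn lie to the left of 0.

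By subfamily the directions were uneven. Over all genes tested 34.4% rose and 34.7% fell, and with library totals 6621 of 12369 rose and 2373 fell. In the C subfamily, the multidrug resistance proteins and their relatives, 7 of 8 tested members rose and none fell (median log2 fold change 0.51). In the A subfamily of large lipid transporters 5 of 7 rose and 1 fell (median 0.73), a count that includes ABCA12 and ABCA4, and with at least 10 counts in every library 3 of 5 rose and 1 fell (median 0.29). The B subfamily went the other way, with 5 of 7 lower and 1 higher (median -0.31), although with library totals only 3 were lower and 2 were higher. Among peroxisomal and lysosomal D members 2 of 3 rose, the lone E member rose, 2 of 3 F members fell and the G members split into 1 higher, 1 lower and 1 not called. With library totals the F members gave 1 higher and 1 lower and the G members 2 higher and 1 lower.

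The other 13 members were at or near the limit of detection, which at 3 counts lay between 0.145 and 0.178 CPM. ABCB11, ABCB5, ABCC12 and ABCD2 had no count in any library. ABCB11 is the bile salt export pump of the hepatocyte canaliculus, and its count of 0 in all 6 libraries allows at most that limit in each. ABCG1, which loads cholesterol onto high-density lipoprotein, had 0 counts in every sh-ctrl library against 1, 1 and 0 in sh-KIF11. ABCA8, ABCA13, ABCC8, ABCC9 and ABCG4 also never exceeded 3 counts, and ABCC8 and ABCC9 are the regulatory subunits of potassium channels. ABCA6, ABCA9 and ABCA10 passed that limit in sh-KIF11 libraries and are given with their chromosomal neighbour ABCA5 below.

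The bile and drug efflux group held 14 members, of which 11 were tested, 8 rose, 1 fell and 2 were not called (median log2 fold change 0.26, against 0.004 over all genes tested). Of all genes tested 34.4% rose and 34.7% fell. With library totals, and with limma on FPKM, 10 of the 11 rose and none fell, where over all genes tested 6621 rose and 2373 fell with library totals, and 5635 rose and 2596 fell with limma on log2(FPKM + 1). The summed level of the group was between 113.6 and 115.9 FPKM in the sh-ctrl libraries and between 191.1 and 196.9 FPKM in sh-KIF11, and the sum in TMM-scaled CPM went from 1113 ± 15 to 1719 ± 25.34 (SD, n = 3). The 2 groups of libraries were far apart on both scales. ABCC2 supplied 46.6% of the group's FPKM in sh-ctrl and 45.7% in sh-KIF11, while ABCC1 went from 11.5% to 17.1% and ABCC3 from 8.65% to 12.9%.

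**Figure D2:**
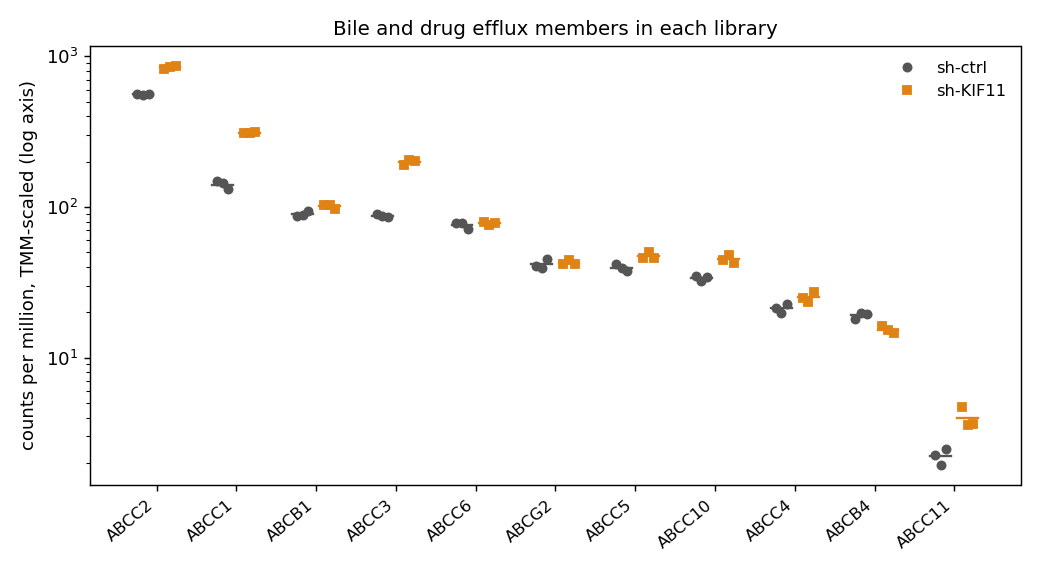
TMM-scaled CPM (log axis) of the 11 tested bile and drug efflux members in each of the 3 sh-ctrl (grey circles) and 3 sh-KIF11 (orange squares) libraries, with the group mean as a line, ordered by the sh-ctrl mean. ABCC1, ABCC2 and ABCC3 are separated widely between the groups, ABCC6 and ABCG2 overlap, and ABCB4 is the member whose sh-KIF11 libraries all lie below sh-ctrl.

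ABCC2 (MRP2; chr10:99782640-99852594, plus strand) secretes bilirubin glucuronide and other conjugates into bile, and it had the highest length-scaled level of the family in sh-ctrl, 53.3 ± 0.864 FPKM. Its level was 567, 554 and 560.2 CPM in sh-ctrl and 829.9, 855 and 866 CPM in sh-KIF11. All sh-KIF11 libraries lay above all sh-ctrl libraries, and the rise was 1.52-fold (log2 fold change 0.60 ± 0.05 SE, adjusted p = 6.98e-15). The 250 bases before its RefSeq start are shown because ABCC2 dominates the group.
ABCC2 upstream: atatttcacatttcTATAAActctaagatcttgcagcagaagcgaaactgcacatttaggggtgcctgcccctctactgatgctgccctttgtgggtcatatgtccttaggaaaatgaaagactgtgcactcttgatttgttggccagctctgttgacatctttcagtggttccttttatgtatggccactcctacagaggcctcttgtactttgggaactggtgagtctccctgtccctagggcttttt
The stretch is chr10:99782390-99782639 on the plus strand (GRCh38.p14, RefSeq), is 45.6% GC and holds 1 CpG, where the medians of all 35116 promoter windows are 58% and 11. Capitals mark a TATAAA that begins 236 bases before the start, which says only that these letters occur there. Both strands were searched for TATAAA, the core of the TATA box, GGGCGG, the GC box, AGGTCA, a core bound by nuclear receptors, TGACTCA, the AP-1 element, and TGACNNNGC, the antioxidant response core, which can overlap an AP-1 match. These letters occur in 10.7%, 42.6%, 12.1%, 4.2% and 10.9% of all windows, and in 11.3%, 47.2%, 3.77%, 1.89% and 17% of the 53 windows that belong to 35 of the members.

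ABCC1 and ABCC3 rose more than ABCC2. ABCC3 (MRP3; chr17:50634777-50692252, plus strand) sits in the basolateral membrane of hepatocytes and returns conjugates to blood. It stood at 90.5, 87.4 and 85.4 CPM in sh-ctrl and at 189, 205 and 201 CPM in sh-KIF11. The groups did not overlap, and the rise was 2.26-fold (log2 fold change 1.18 ± 0.05 SE, adjusted p = 6.46e-23). ABCC1 (MRP1; chr16:15949577-16143074, plus strand) exports glutathione conjugates and drugs and is scarce in normal hepatocytes. Its values were 148, 144 and 131 CPM in sh-ctrl and 309.8, 311 and 314 CPM in sh-KIF11. These libraries were separated as clearly, and the rise was 2.21-fold (log2 fold change 1.14 ± 0.05 SE, adjusted p = 9.42e-23).

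Ratios of raw counts within a library need no scaling between libraries. The ABCC3 to ABCC2 ratio was 0.160, 0.158 and 0.152 in sh-ctrl, against 0.228, 0.240 and 0.233 in sh-KIF11. The ABCC1 to ABCC2 ratio went from 0.252 ± 0.0152 to 0.367 ± 0.00583 (SD, n = 3). The ratio of ABCC2 to ABCB4 went from 29.5 ± 1.83 to 55.5 ± 4.05. All of the ratios separated the groups completely, and each of the 4 ratios examined, with that of ABCG5 to ABCG8 below, had a two-sided exact permutation p of 0.1 (0.1 after Benjamini-Hochberg adjustment over the 4), which is the smallest that 3 against 3 libraries allow. For ABCG5 to ABCG8 and ABCC2 to ABCB4 the first gene rose and the second fell in CPM without overlap. These ratios therefore had to separate the groups. The ratios of ABCC3 and ABCC1 to ABCC2 restate log2 fold changes of 1.18 and 1.14 against 0.60 from the same counts. The p-values of the 4 ratios thus add no support.

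**Figure D3:**
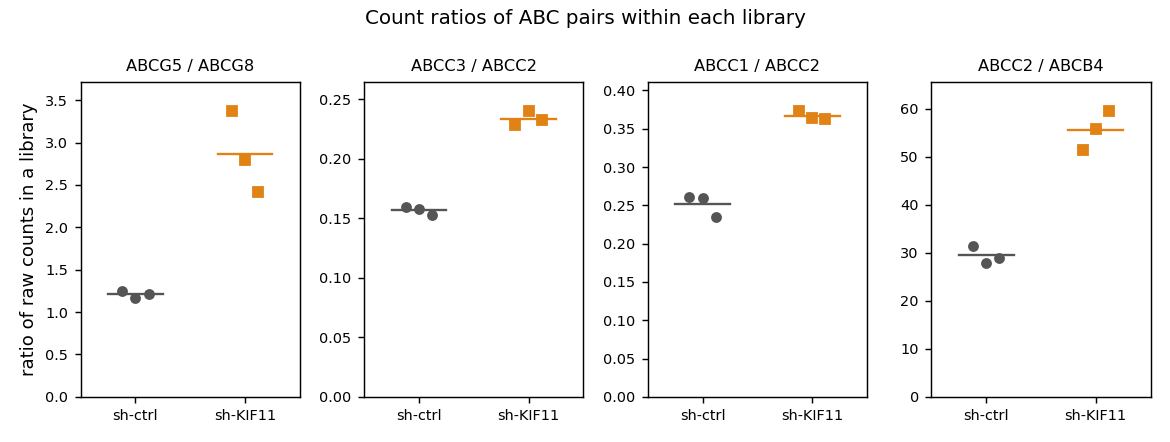
Ratio of the raw counts of 2 ABC genes within each library (y axis, from 0) for 4 pairs, with sh-ctrl as grey circles, sh-KIF11 as orange squares and the group mean as a line. In every panel the 3 sh-KIF11 libraries lie above the 3 sh-ctrl libraries, and the ABCG5 to ABCG8 ratio of the sh-KIF11 libraries runs from 2.41 to 3.37.

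ABCB1 and ABCB4 are neighbours on chromosome 7 (chr7:87503633-87713323, minus strand, and chr7:87401697-87480435, minus strand). ABCB1 is P-glycoprotein, the broad drug efflux pump, and stood at 87.2, 88.6 and 94.7 CPM in sh-ctrl and at 103, 104 and 97.1 CPM in sh-KIF11. The sh-KIF11 libraries were all higher, but the lowest of them was close to the highest of sh-ctrl, and the rise was 1.12-fold (log2 fold change 0.17 ± 0.05 SE, adjusted p = 0.00645). ABCB4 (MDR3) flips phosphatidylcholine into bile and had 17.99, 19.8 and 19.4 CPM in sh-ctrl and 16.1, 15.4 and 14.5 CPM in sh-KIF11. It was lower in all 3 sh-KIF11 libraries (log2 fold change -0.31 ± 0.09 SE, adjusted p = 0.00236), a call lost with library totals, where the value was -0.08 (adjusted p = 0.421), and with limma on FPKM.

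The remaining efflux members changed less or were expressed at lower levels. ABCC4, a basolateral exporter of bile acids and cyclic nucleotides, was at 21.3, 19.9 and 22.8 CPM in sh-ctrl and at 25.01, 23.5 and 27.4 CPM in sh-KIF11. Its groups were separate but close (log2 fold change 0.25 ± 0.08 SE, adjusted p = 0.00872), and the call was lost without sh-ctrl replicate 2 (adjusted p = 0.0579) and without sh-KIF11 replicate 3 (adjusted p = 0.0793). ABCC10, a drug pump of broad range, rose from 33.8 to 45.0 CPM (log2 fold change 0.41), and ABCC5, an exporter of cyclic nucleotides, rose from 39.6 to 47.5 CPM (0.26). ABCC11, an exporter of lipophilic anions, rose from 2.22 to 3.97 CPM (0.84 ± 0.21 SE, adjusted p = 0.000578).

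ABCC6 and ABCG2 were not called. ABCC6, a mainly hepatic protein on which ATP release depends, had 78.6, 78.2 and 71.6 CPM in sh-ctrl and 79.9, 75.7 and 78.8 CPM in sh-KIF11, and the groups overlapped (log2 fold change 0.04 ± 0.06 SE, adjusted p = 0.574). The annotation holds the pseudogenes ABCC6P1 and ABCC6P2, with which near-identical reads may be shared, so the level of ABCC6 is uncertain. ABCG2, the breast cancer resistance protein, which exports drugs and urate, had 40.8, 39.6 and 44.8 CPM in sh-ctrl and 41.7, 44.2 and 41.7 CPM in sh-KIF11, again overlapping (0.03 ± 0.07 SE, adjusted p = 0.729). Both were called higher with library totals, at 0.27 and 0.26, and with limma on FPKM.

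The lipid transport group held 16 members, of which 9 were tested, 6 rose, 2 fell and ABCA7 was not called (median log2 fold change 0.48, against 0.004 over all genes tested). ABCA12 and ABCA4 are in this count through their sh-KIF11 level, and with at least 10 counts in every library 4 of 7 rose and 2 fell (median 0.29, as for the efflux members under that filter). Its summed level per transcript length was lower than that of the efflux pumps, between 14.37 and 15.09 FPKM in sh-ctrl and between 19.03 and 19.15 FPKM in sh-KIF11. The sum in CPM went from 177.3 ± 1.718 to 198.7 ± 2.827 (SD, n = 3). Efflux and lipid members both had more higher than lower calls, where 34.4% of all genes tested rose and 34.7% fell. With at least 10 counts in every library the lipid members ranged from -1.005 to 1.15 and the efflux members from -0.29 to 1.20. No test of the difference between the groups was made. Moving ABCB4 to the lipid group and ABCG5 and ABCG8 to the efflux group gave 9 higher and 1 lower of 12 efflux members and 5 higher and 2 lower of 8 lipid members.

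**Figure D4:**
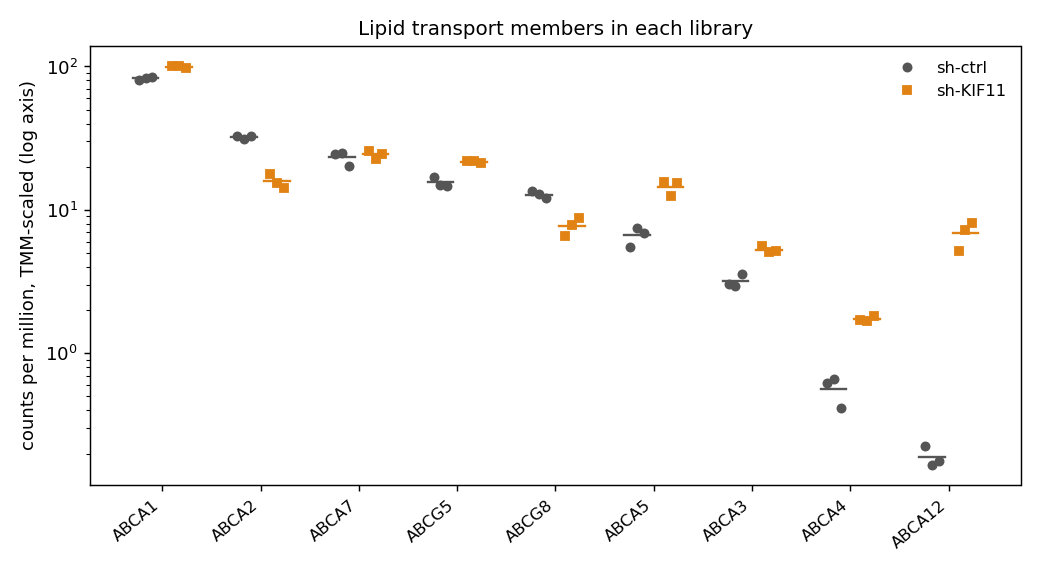
TMM-scaled CPM (log axis) of the 9 tested lipid transport members in each sh-ctrl (grey circles) and sh-KIF11 (orange squares) library, with the group mean as a line, ordered by the sh-ctrl mean. ABCA2 and ABCG8 lie lower in sh-KIF11, ABCA7 overlaps, and ABCA12 goes from a mean of 0.189 to 6.84 CPM.

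ABCA12 (chr2:214931542-215138428, minus strand) loads ceramides into the lamellar granules of skin keratinocytes. It was close to the limit of detection in sh-ctrl, with 4, 3 and 3 counts, against 104, 149 and 161 counts in sh-KIF11. In CPM this was 0.224, 0.166 and 0.178 against 5.18, 7.19 and 8.16. No library of sh-KIF11 came near those of sh-ctrl, and the log2 fold change was 5.13 ± 0.32 SE (adjusted p = 4.56e-18), a size that rests on the few sh-ctrl counts and was 0.69 with limma on log2(FPKM + 1). The 250 bases before its outer RefSeq start are shown because this was the largest change in the family.
ABCA12 upstream: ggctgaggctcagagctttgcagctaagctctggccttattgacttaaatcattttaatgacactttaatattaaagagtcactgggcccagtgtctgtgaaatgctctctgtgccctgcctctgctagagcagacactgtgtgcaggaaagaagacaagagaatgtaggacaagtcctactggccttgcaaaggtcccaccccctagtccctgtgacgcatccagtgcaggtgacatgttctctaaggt
The stretch is chr2:215138627-215138876 on the minus strand (GRCh38.p14, RefSeq), is 48.8% GC, holds 1 CpG and has no match to the 5 motifs. RefSeq lists a further start inside the gene, at position 215032086, and the counts do not say which was used.

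ABCA4, the retinoid flippase of photoreceptors, rose as well from a low level, with 0.617, 0.665 and 0.415 CPM in sh-ctrl and 1.69, 1.69 and 1.82 CPM in sh-KIF11. These are 11, 12 and 7 counts against 34, 35 and 36, so the groups were separate (log2 fold change 1.60 ± 0.33 SE, adjusted p = 5.21e-05). ABCA3, which packs lung surfactant lipid into lamellar bodies, rose from 3.17 ± 0.334 to 5.27 ± 0.27 CPM (log2 fold change 0.73, adjusted p = 0.000308).

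ABCA5 lies in a row with ABCA10, ABCA6, ABCA9 and ABCA8 on chromosome 17, all on the minus strand between positions 68867292 and 69327244 (GRCh38). ABCA5, a protein of lysosomes and late endosomes, had 5.49, 7.53 and 6.87 CPM in sh-ctrl and 15.5, 12.5 and 15.4 CPM in sh-KIF11. The groups did not overlap, and the rise was 2.18-fold (log2 fold change 1.12 ± 0.12 SE, adjusted p = 1.27e-10). Its gene overlaps ABCA10 on the same strand, so reads in the overlap are uncertain. ABCA10 had 0, 0 and 3 counts in sh-ctrl against 8, 12 and 12 in sh-KIF11. Its mean sh-KIF11 level was 3.10 times the limit of 3 counts per library. ABCA9 had 0, 1 and 0 counts against 10, 6 and 9, a mean of 2.43 times that limit. Neither ratio takes in the counting error of the sh-KIF11 counts. ABCA6 had 3, 0 and 1 counts against 4, 8 and 2, which overlap, and ABCA8 stayed at 0 or 1 in every library. None of these 4 neighbours passed the count filter.

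ABCA1 (chr9:104781002-104928237, minus strand) hands cholesterol and phospholipid to apolipoprotein A-I and had the highest FPKM of the lipid group, 4.68 ± 0.163 in sh-ctrl. It stood at 80.6, 83.1 and 84.5 CPM in sh-ctrl and at 100.4, 100.9 and 97.0 CPM in sh-KIF11. All sh-KIF11 libraries were higher, by 1.20-fold on average (log2 fold change 0.27 ± 0.05 SE, adjusted p = 2.88e-05). ABCA2 (chr9:137007227-137028922, minus strand), an endosomal and lysosomal protein best known from myelin-forming cells, fell, from 33.0, 31.2 and 32.6 CPM to 17.7, 15.5 and 14.1 CPM. The separation was complete (log2 fold change -1.03 ± 0.09 SE, adjusted p = 4.56e-14). ABCA2 stayed called lower under every alternative run. Its fall was less than 2-fold with library totals (-0.80) and with limma on log2(FPKM + 1) (-0.50). ABCA7, a phospholipid transporter related to ABCA1, was at 23.2 ± 2.52 and 24.4 ± 1.65 CPM and overlapped (0.07, adjusted p = 0.491), but was called higher with library totals (0.30).

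ABCG5 and ABCG8 changed in opposite directions. The 2 proteins join to form the sterol pump of the canaliculus and the gut, and neither is thought to work without the other. ABCG5 had 16.9, 15.0 and 14.6 CPM in sh-ctrl and 22.0, 21.9 and 21.3 CPM in sh-KIF11. ABCG8 had 13.5, 12.9 and 12.0 CPM in sh-ctrl and 6.53, 7.82 and 8.82 CPM in sh-KIF11. Each gene separated the groups, ABCG5 upwards (log2 fold change 0.48 ± 0.09 SE, adjusted p = 6.52e-06) and ABCG8 downwards (-0.73 ± 0.12 SE, adjusted p = 8.17e-07), and both calls were kept under every alternative run. The count ratio of ABCG5 to ABCG8 was 1.25, 1.17 and 1.22 in sh-ctrl, against 3.37, 2.80 and 2.41 in sh-KIF11, a mean log2 difference of 1.23. On the FPKM scale the mean ratio went from 1.28 to 3.27.

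The genes lie head to head on chromosome 2, and the bases between their RefSeq starts are shown because the pair shares them. They are given on the plus strand, on which ABCG8 reads to the right and ABCG5 to the left.
ABCG5 to ABCG8: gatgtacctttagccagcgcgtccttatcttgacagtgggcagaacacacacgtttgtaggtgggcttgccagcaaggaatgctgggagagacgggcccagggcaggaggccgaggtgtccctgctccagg
The 131 bases are chr2:43838840-43838970 (GRCh38.p14, RefSeq), between the ABCG5 start at 43838839 and the ABCG8 start at 43838971, with 60.3% GC and 5 CpGs. None of the 5 motifs was found in them, which says only that these letters are absent there. In GENCODE 29 the outermost ABCG8 transcript begins at 43831942, inside ABCG5, so the gene models overlap on opposite strands. The library kit keeps the strand, but whether the counting used it is not given in the sources used here, and the part of overlapping reads in either value was not tested. This limit is not particular to the pair. In GENCODE 29, 27 of the 45 members overlap a gene on the other strand, ABCB1, ABCB9, ABCC11 and ABCE1 among them, and 15 overlap a gene on the same strand.

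Among the members of mitochondria and of peptide transport, 4 of 5 fell and none rose (median log2 fold change -0.43), though with library totals 3 fell and 1 rose. Of all genes tested 34.7% fell, and with library totals 2373 of 12369 fell. ABCB6, a porphyrin transporter, had 112, 103 and 97.3 CPM in sh-ctrl and 66.1, 66.5 and 62.7 CPM in sh-KIF11. It was lower in every sh-KIF11 library (log2 fold change -0.67 ± 0.06 SE, adjusted p = 1.12e-13). ABCB9, the lysosomal peptide transporter, fell from 9.66 to 5.87 CPM (-0.72), and ABCB8, of the mitochondrial inner membrane, fell from 37.1 to 27.5 CPM (-0.43). ABCB10, which serves haem synthesis in mitochondria, had 42.4, 35.0 and 47.8 CPM in sh-ctrl and 37.5, 33.3 and 34.0 CPM in sh-KIF11, so its libraries overlapped although it was called lower (-0.25, adjusted p = 0.00668). That call was lost without sh-ctrl replicate 3 (adjusted p = 0.078) and with library totals, where the value was -0.02.

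ABCE1, ABCD3 and ABCF1 followed ABCC2 as the highest of the family in sh-ctrl FPKM (38.2, 34.7 and 31.8), and their changes were small. ABCD3, the abundant fatty acid transporter of peroxisomes, went from 169 to 184 CPM (log2 fold change 0.12, adjusted p = 0.0287). Its call was lost without sh-ctrl replicate 1 (adjusted p = 0.0931), without sh-ctrl replicate 2 (0.113), without sh-KIF11 replicate 2 (0.143) and without sh-KIF11 replicate 3 (0.0526). ABCD4, the lysosomal cobalamin transporter, rose from 26.1 to 32.9 CPM (0.33, adjusted p = 0.000254). ABCE1, which splits ribosomes after termination, rose from 150.3 to 171 CPM (0.18, adjusted p = 0.00135).

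ABCF2 was the member of its subfamily that moved most, with 92.0, 91.9 and 87.4 CPM in sh-ctrl and 54.5, 53.7 and 53.9 CPM in sh-KIF11 (log2 fold change -0.74 ± 0.06 SE, adjusted p = 3.91e-15). The groups were far apart. The pseudogenes ABCF2P1 and ABCF2P2 and an overlapping gene on the same strand leave its level uncertain. ABCF3 fell from 55.4 to 47.2 CPM (-0.23, adjusted p = 0.00159), a call that was lost with library totals and with limma on FPKM. ABCF1, which takes part in translation initiation, was at 216 ± 7.05 and 203 ± 3.19 CPM (-0.09, adjusted p = 0.0967) and was called higher with library totals (0.14, adjusted p = 0.00978), although its TMM-scaled libraries did not overlap.

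Promoter composition was compared as a description, with the median CpG count of the 250 bases before the start over the windows of each gene. It was 16.5 over the 14 members that rose and had a window, 23 over 8 that fell, 26 over 4 that were not called and 2 over 9 that were not tested. The ranges overlapped, from 1 to 42 among members that rose and from 8 to 33 among those that fell.

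Genes that work with the transporters were taken from lists of textbook partners. Over all 12369 genes tested 69.1% were called, 34.4% higher and 34.7% lower, and with library totals 6621 rose and 2373 fell. Of 18 bile acid genes, 14 were tested, 9 fell and 2 rose (78.6% called, median log2 fold change -0.85). With at least 10 counts in every library, a filter that leaves out SLC51A, 7 of 12 fell and 3 rose (median -0.60). The largest falls were in SLC51B (7.92 to 1.74 CPM, -2.19) and SLC51A (2.201 to 0.544 CPM, -2.00), which form the basolateral bile acid exporter. CYP7A1, the rate-limiting enzyme of bile acid synthesis, rose from 2.29 to 4.93 CPM (1.11, adjusted p = 4.45e-06), and TMEM30A, a subunit of phospholipid flippases, rose from 106 to 118 CPM (0.16), with overlapping libraries. TMEM30A lost its call without sh-ctrl replicate 1 (adjusted p = 0.0648), without sh-ctrl replicate 2 (0.0743) and without sh-KIF11 replicate 2 (0.087). With library totals 9 of these genes fell and 5 rose.

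Of 8 tested regulators of efflux genes 4 fell and 3 rose (87.5% called, against 69.1% of all genes tested). With library totals 2 fell and 4 rose. RXRA, the partner of many nuclear receptors, fell from 105 to 49.4 CPM (log2 fold change -1.09), and HNF4A, a master regulator of hepatocyte genes, fell from 321 to 232 CPM (-0.47). NR1I2, the pregnane X receptor, rose from 15.2 to 22.2 CPM (0.54), and AHR, the dioxin receptor, rose from 46.3 to 64.0 CPM (0.47). Of 16 sterol efflux partners 14 fell and 1 rose (93.8% called, median -0.55), with 11 lower and 1 higher under library totals. APOA1, the acceptor of lipid from ABCA1, fell from 1689 to 446 CPM (-1.92), and SCD, a fatty acid desaturase, fell from 3642 to 1299 CPM (-1.49). APOA1 and HNF4A are also counted among the hepatocyte markers, so their falls here are not separate results. PLTP, the phospholipid transfer protein, rose from 63.4 to 86.0 CPM (0.44), and NR1H2, a liver X receptor, was called lower at -0.22 (adjusted p = 0.0286), which turned to 0.01 with library totals and was lost without sh-ctrl replicate 1 (adjusted p = 0.123) and without sh-KIF11 replicates 1 (0.0513) and 2 (0.0842).

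Of 10 peroxisomal partners 6 fell and 3 rose (90% called, against 69.1% of all genes tested, median -0.23). With library totals 2 were lower and 3 higher. ACAA1, an enzyme of peroxisomal beta-oxidation, fell by 0.82 on the log2 scale, while ACBD5, a peroxisomal tether, and ACSL1, which activates fatty acids, rose (0.57 and 0.32). Of 19 mitochondrial iron and haem genes 12 fell and 2 rose (73.7% called, median -0.31), against 7 lower and 6 higher with library totals. GLRX5, of iron-sulphur cluster assembly, and CPOX, of haem synthesis, fell by 0.83 and 0.81 on the log2 scale, and FECH, the last enzyme of haem synthesis, and SLC25A37, the mitochondrial iron importer, each rose by 0.40. Of 7 ribosome recycling partners of ABCE1, 2 fell and 1 rose, against none lower and 5 higher with library totals. The share called, 42.9%, was below the 69.1% of all genes tested. EIF2AK4, a kinase that senses stalled translation, rose (0.35), and the calls of PELO (-0.24) and GSPT1 (-0.23), both of translation termination and rescue, were lost with library totals. PELO also lost its call without sh-KIF11 replicate 2 (adjusted p = 0.085).

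**Figure D5:**
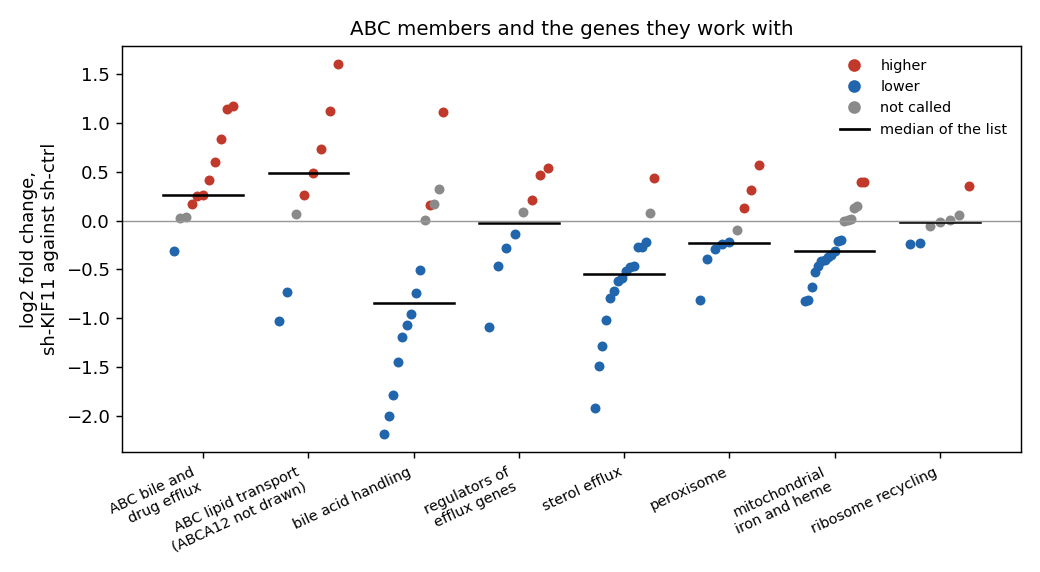
Log2 fold change of sh-KIF11 against sh-ctrl (y axis) for the tested genes of 2 ABC groups and 6 lists of partners, each point a gene coloured by its call and each black line the median of the list. ABCA12, at 5.13, and 1 peroxisomal partner are not drawn but count in their medians. The medians of the ABC groups, 0.26 and 0.48, lie above 0, and those of the bile acid and sterol efflux partners, -0.85 and -0.55, below it. With at least 10 counts in every library, a filter that leaves out ABCA12, ABCA4 and SLC51A, the lipid median is 0.29. The median of the bile acid partners is then -0.60.

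Of the family relatives whose symbols fall outside the rule, the peptide transporters of antigen presentation TAP1 (61.9 to 52.4 CPM, log2 fold change -0.24) and TAP2 (62.3 to 42.3 CPM, -0.56) both fell, with 1 of the 2 still called lower under library totals, and CFTR was too low to be tested.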

How the data were processed

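Poly(A) RNA of HepG2 cells was compared between 3 sh-ctrl and 3 sh-KIF11 libraries, grouped by the sample labels. The columns headed shRNA were read as sh-KIF11, the only shRNA besides the control in the labels. The authors deposited raw counts per gene and, in a second table, FPKM values of the same genes. The submitters' processing notes name, without roles, GRCh38, bcl2fastq 1.8.4, Trimmomatic, HISAT2 2.1.0, Cufflinks 2.2.1, HTSeq 0.9.1 and DESeq. Whether the counting used strand is not given in the sources used here. Nothing states that the libraries came from separate cultures, so p-values measure the spread between these libraries, which may be technical.

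Counts were fitted in R 4.3.3 with edgeR 4.0.16 (TMM, filterByExpr, quasi-likelihood test, Benjamini-Hochberg over 12369 genes, threshold 0.05). That test reports no SE. Each SE given was derived as the absolute log2 fold change divided by the square root of the F statistic of the test. DESeq2 1.42.0 and limma 3.58.1 on log2(FPKM + 1) and log2(FPKM + 0.1) were alternatives, with other scalings, filters, a replicate block and each library left out. FPKM carries no TMM factor. The median log2 fold change of all genes tested was 0.169 with log2(FPKM + 0.1). That lies between 0.004 with TMM factors and 0.235 with library totals. Values for log2(FPKM + 1) understate changes of low genes. On simulated counts of 12339 genes with 200 planted changes of 1 on the log2 scale, edgeR called 96% and 9 others. Every simulated gene had the same dispersion (relative spread between libraries), and only these 200 changed. The simulation therefore cannot give the error rate in the data, where 69.1% of genes were called. A limit of 3 counts was used for detection and covers counting error only. Positions came from GENCODE 29, in which all 45 members were found. Promoters came from RefSeq. Full values are given for members changed by 2-fold or more, for 13 transporters chosen by their role and, of each partner list, for the 2 highest and 2 lowest called genes at a mean of at least 1 CPM. Other members are given by mean or count, and values of a few listed genes are not reported here. The members and lists were chosen with earlier results of these data known.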

Additional observations from a re-analysis of the deposited data

How the results depend on the processing

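The number of ABC members called was 26 and lay between 24 and 29 over the alternatives run, between 24 and 27 with any library omitted, and was 26 with DESeq2. The efflux members called numbered between 8 and 10, the lipid members between 6 and 10 and the other members between 8 and 10. The replicate block gave 26 members called, 17 higher and 9 lower, and changed no call of a member. Same-numbered libraries did not deviate together (correlations 0.03, -0.0185 and -0.00253), so the numbers were not taken as pairs. Of the fold changes of 30 tested members under 15 alternatives, 413 kept direction and call, 10 gained a call, 18 lost it and 7 changed sign. Those that changed sign, on the log2 scale, were ABCF1 with library totals (0.1406) and with limma on log2(FPKM + 1) and log2(FPKM + 0.1) (0.0622 and 0.0640), ABCG2 without sh-ctrl replicate 2 (-0.0027) and without sh-KIF11 replicate 2 (-0.0010), and ABCA7 (-0.0207) and ABCC6 (-0.0074) without sh-ctrl replicate 3. With a library omitted ABCG2 ranged from -0.0027 to 0.0808, ABCA7 from -0.0207 to 0.122 and ABCC6 from -0.0074 to 0.0655. Among the partners NR1H2 changed sign with library totals (0.0150). ABCF1 was called lower without sh-ctrl replicate 3 (adjusted p = 0.00959) and higher with library totals (adjusted p = 0.00978). Beyond the scalings themselves the cause was not tested. The share of called members that were higher was 65.4% (49.8% over all genes), 79.3% with library totals (73.6%) and 78.6% with limma on log2(FPKM + 1) (68.5%). The count filter, not the detection limit of 3 counts, left 13 members untested. Without that filter 41 members were tested and 27 were called, 18 higher and 9 lower.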
